A study of Mus musculus with 27 samples.

Results

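Annexins are a family of calcium-regulated membrane-binding proteins, and 9 of their genes (Anxa1, Anxa2, Anxa3, Anxa4, Anxa5, Anxa6, Anxa7, Anxa11 and Anxa13) are described here across the livers of old mice on different diets. They are 9 of the 12 annexin genes that have a transcript cluster (a set of array probes for 1 transcript) with a single gene symbol, among 18820 such genes in all. A gene with more than 1 cluster was represented by the brightest, averaged over the 27 mice, a step that does not use the diet groups. The family itself was chosen by the measured Anxa2 levels of 3 groups, high in MF livers and low in CR and CR-MF livers. Differences of the 9 members among those 3 groups are therefore given as descriptions, with standard errors or intervals and without p-values. Which members were past the threshold given below is also said as a description. The comparisons of members with C-fed mice were tested, and these tests share the MF, CR and CR-MF arrays with the descriptions. For partner and marker genes, calls or adjusted p-values are given in all comparisons. Some of these genes, such as S100a11, correlated with Anxa2, so their differences among the 3 groups are not independent of the choice.

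The study asked what a late change of diet does to mice that had been calorie-restricted for life. Whole-liver RNA of 27 male C57BL/6J mice aged 28 months was hybridised to Mouse Gene 1.1 ST arrays (Affymetrix), each mouse on its own array. All mice were housed individually, started their diet at 9 weeks of age, and were fasted for 4 h, given carboxymethyl cellulose by gavage and fasted for another 6 h before sacrifice, CR mice being given part of their daily portion shortly before the first fast. CR-MF mice (n = 7) had received the restricted diet until 24 months and then, for the last 4 months, the medium-fat diet, first in rising portions and then without limit. MF mice (n = 7) had free access to a diet with 25% of its energy from fat. CR mice (n = 5) received 30% less energy than controls in 1 daily portion, and C mice (n = 8) had free access to the control diet AIN-93W.

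Annexins share a folded core that binds acidic phospholipids, such as phosphatidylserine on the inner face of the plasma membrane, when calcium rises. Through their differing N-terminal ends they bind other proteins, in particular small S100 proteins, and take part in membrane repair, vesicle traffic, clotting and plasmin formation at the cell surface, and the ending of inflammation. In the liver they are found in hepatocytes and, some of them more so, in bile duct, endothelial, stellate and immune cells, so that a level in whole liver sums over cell types. In such bulk RNA, fewer cells of a type and less RNA per cell cannot be told apart.

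The arrays were alike in overall signal, with median log2 values between 5.38 and 5.48 and correlations between any pair of arrays of 0.975 to 0.991. Levels are log2 intensities after robust multiarray averaging (RMA), so a difference of 1 is a doubling. They compare mice for 1 gene, not 1 gene with another. The mean level of 9 hepatocyte markers was 12.88 in CR-MF, 12.81 in MF, 12.93 in CR and 12.84 in C livers, and none of those 9 genes lay under the detection threshold of intensity 20 (4.32 on the log2 scale). Of the 3 that passed the filter on flat genes, 2 were lower in MF than in CR livers by limma, Cps1 (−0.29, adjusted p = 0.0287) and Tat (−0.46, adjusted p = 0.015), the comparison in which Anxa2 and Anxa5 were higher, and their part in it was not tested. Leaving out any of 6 mice lowered that count, and it was 0 within G150. Of all genes tested, 2.62% were called lower in MF minus CR. One CR-MF mouse, BC4_11, stood apart from its group in several annexins and in the macrophage markers given further on. It was also the highest CR-MF mouse in several other marker lists. CR-MF differences of Anxa1, Anxa2 and Anxa3 are also given without this mouse. The array names carry what appear to be plate codes, and code G150 held 5 CR-MF, 5 MF, 3 CR and 6 C mice, the other 2 codes 1 mouse of each group. Code G152 held BC4_11, C4_5, B4_3 and A4_1, so for BC4_11 the mouse and the code cannot be told apart within its group. All CR-MF arrays carry the well row H, so that row and CR-MF cannot be told apart.

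All 9 members passed the filter on low and flat genes (5 or more arrays over intensity 20, interquartile range over 0.1), as did 13993 genes in all, on which limma was run with Benjamini-Hochberg adjustment and a threshold of 0.05. Anxa2 and Anxa5 were the 2 of 9 members past that threshold in CR-MF minus MF, both lower in CR-MF livers, beside 0.55% of all genes called higher and 0.893% called lower. The same 2 were past it in MF minus CR, both higher in MF livers, beside 2.8% of all genes called higher and 2.62% called lower. These 2 comparisons were known when the family was chosen, so nothing is read from the counts. In CR-MF minus CR, 0 of 9 members were past the threshold, and 0 were called by the IBMT method the study used. Beside this, 0.236% of all genes were called higher and 0.364% lower. The choice also rested on low Anxa2 levels in both of these groups, so nothing is read from this count either.

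Against C-fed mice no member passed limma's test. In CR-MF minus C, 0 of 9 were called (3 at an unadjusted p under 0.05, 0 with IBMT), beside 0.136% of all genes called higher and 0.164% lower. In CR minus C, 0 of 9 were called (4 at an unadjusted p under 0.05, 0 with IBMT), beside 0.765% of all genes called higher and 0.808% lower. In MF minus C, 0 of 9 were called (2 at an unadjusted p under 0.05, 0 with IBMT), where 0% of the 13993 genes were called in either direction, 556 of them with an unadjusted p under 0.05. The median log2 difference of the 9 members was 0.02 in CR-MF minus CR, −0.24 in CR-MF minus MF, 0.31 in MF minus CR, −0.09 in CR-MF minus C, −0.02 in MF minus C and −0.11 in CR minus C. The median of all tested genes lay between −0.01 and 0.02 in these comparisons.

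**Figure D1:**
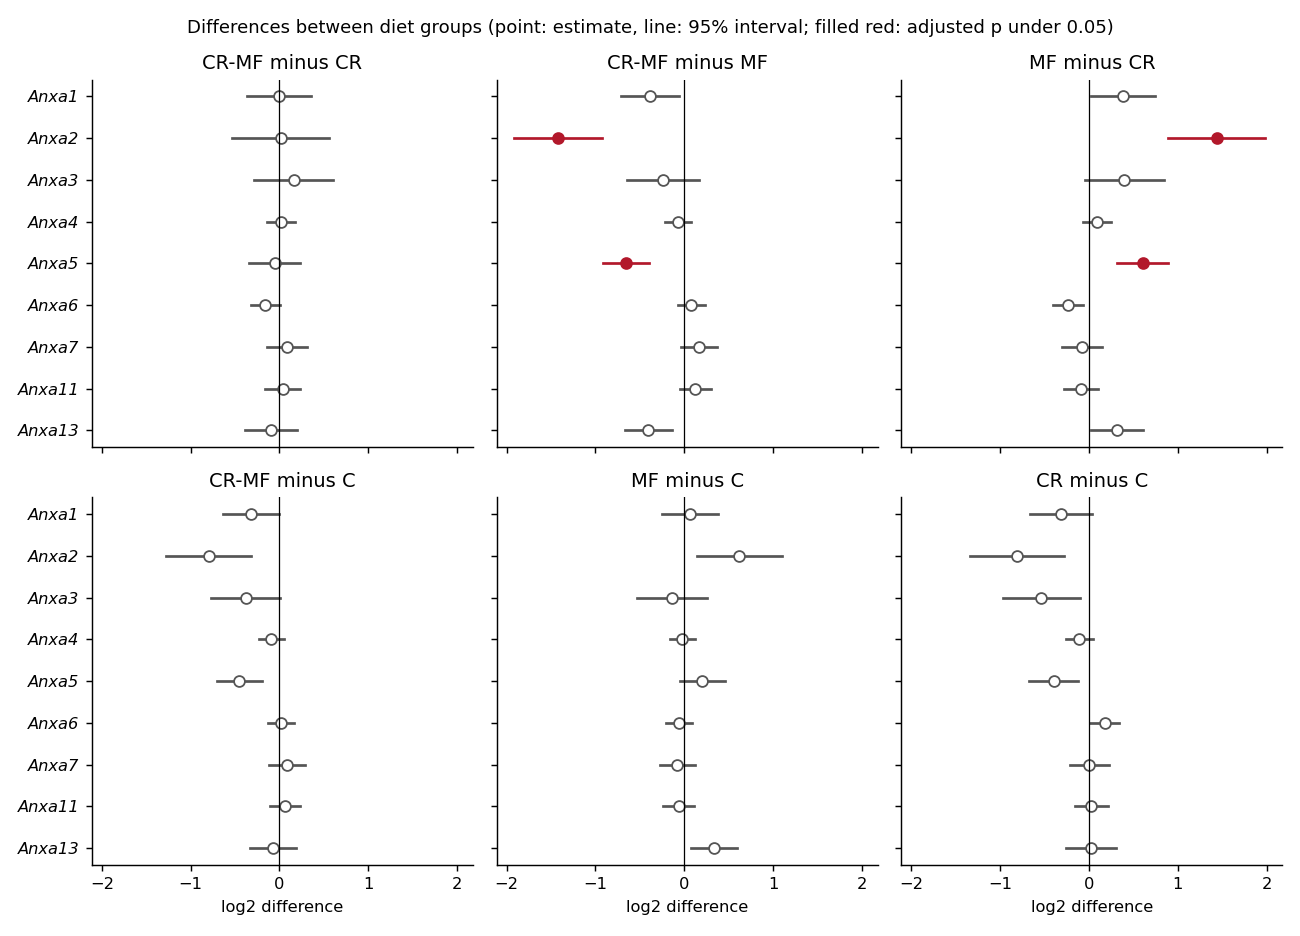
Log2 differences of the 9 annexin genes in 6 comparisons of diet groups, with 95% intervals from limma, filled red where the adjusted p was under 0.05. Anxa2 and Anxa5 are the members marked, on the negative side in CR-MF minus MF and on the positive side in MF minus CR, and no member is marked in the other 4 panels.

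Anxa2 (transcript cluster 10586744, on chromosome 9) encodes the annexin that pairs with S100a10 in a complex that gathers plasminogen and its activator at the cell surface and links membranes to actin. Its log2 levels were 7.12, 7.43, 7.14, 6.98, 8.26, 6.84 and 7.37 in the 7 CR-MF mice, 8.76, 8.57, 9.46, 9.72, 8.26, 7.78 and 8.53 in the 7 MF mice, and 7.35, 7.19, 7.79, 6.99 and 7.12 in the 5 CR mice. In the 8 C mice the lowest level was 7.50, the median 8.08 and the highest 8.59. Of the 7 CR-MF mice, 6 lay below every MF mouse, the exception being BC4_11, and 6 of the 7 MF mice lay above every CR mouse, the exception being C4_13. The CR-MF mice lay among and around the CR mice, with 1 above and 2 below all of them. Group means were 7.31 ± 0.47 in CR-MF, 8.73 ± 0.67 in MF, 7.29 ± 0.31 in CR and 8.10 ± 0.36 in C livers (SD, n = 7, 7, 5 and 8).

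Expressed as differences, Anxa2 was −1.42 (SE 0.24) in CR-MF minus MF, a 2.67-fold lower level in CR-MF livers, and 1.44 (SE 0.26) in MF minus CR, a 2.71-fold higher level in MF livers. In CR-MF minus CR the difference was 0.02 with a 95% interval of −0.53 to 0.56, which spans changes of both signs. Without BC4_11 it was −0.14, and CR-MF minus MF was −1.58. The C mean lay between the low and the high groups. Anxa2 in CR-MF livers was below C by 0.80 (SE 0.23), which did not pass limma's test (adjusted p = 0.16), and passed it without BC4_11 (−0.96, adjusted p = 0.0424). In CR livers Anxa2 was below C by 0.81 (SE 0.26), which did not pass either (adjusted p = 0.0846) but did without the C mouse A4_1 (−0.90, adjusted p = 0.0477), and all 5 CR mice lay under the C mean. In MF livers Anxa2 was above C by 0.62 (SE 0.23, adjusted p from limma = 0.9997), with 6 of 7 mice over the C mean. These tests against C use the Anxa2 levels by which the family was chosen, so their p-values are not independent of the choice. Neither CR-MF nor CR livers passed with all mice in the main fit, so the passes are given as descriptions.

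Anxa5 (transcript cluster 10497817, on chromosome 3) encodes the annexin that binds exposed phosphatidylserine with high affinity and serves as the standard stain for dying cells. Its log2 levels were 10.62, 11.15, 10.997, 10.99, 11.28, 10.94 and 11.27 in the CR-MF mice, 11.63, 11.74, 12.11, 11.89, 11.42, 11.26 and 11.78 in the MF mice, and 10.86, 10.83, 11.49, 11.03 and 11.22 in the CR mice. In C mice the lowest was 11.24, the median 11.44 and the highest 11.87. As for Anxa2, the CR-MF and CR means were low, the C mean higher and the MF mean highest, but the differences were smaller. All 7 CR-MF mice lay under the MF mean and 5 of them under every MF mouse, and 5 of 7 MF mice lay above every CR mouse. Group means were 11.03 ± 0.23 in CR-MF, 11.69 ± 0.29 in MF, 11.09 ± 0.27 in CR and 11.49 ± 0.21 in C livers (SD, same n).

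The Anxa5 difference was −0.66 (SE 0.13) in CR-MF minus MF, 0.60 (SE 0.14) in MF minus CR and −0.05 in CR-MF minus CR, with a 95% interval of −0.34 to 0.24 for the last of these. It was below C by 0.45 (SE 0.12) in CR-MF livers and by 0.40 (SE 0.14) in CR livers, with limma's adjusted p at 0.116 and 0.103, and above C by 0.20 (SE 0.12) in MF livers (adjusted p = 0.9997). The CR minus C value passed without the CR mouse B4_5 (−0.50, adjusted p = 0.0486). Within plate code G150, which has 3 CR mice, Anxa2 was −1.71 in CR-MF minus MF and 1.42 in MF minus CR, and Anxa5 was −0.70 and 0.54. Of these 4 values the Anxa2 difference in CR-MF minus MF alone was past the threshold. Without the CR mouse B4_3, the MF minus CR difference of Anxa5 was 0.54 and no longer past it.

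A screen built after the study's scheme, for genes near the CR level after the switch, asks for an unadjusted p under 0.01 in MF minus CR and in CR-MF minus MF, with CR and CR-MF on the same side of MF, and a p of at least 0.05 in CR-MF minus CR. Anxa2 and Anxa5 met it, the 2 of 9 members to do so, as did 2.57% of all tested genes. The screen asks for the pattern of Anxa2 by which the family was chosen, so nothing is read from this count. A p of at least 0.05 does not show that CR-MF and CR levels were equal, and both differences share the MF arrays.

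The promoters of these 2 members are printed because their RNA varied together, from 250 bases before to 50 after the start of transcription, from RefSeq on build GRCm38.p6. Capitals mark matches on either strand to an AP-1 motif (TGANTCA), a GC box (GGGCGG) and a TATA motif (TATAAA). The first window is chr9:69453433-69453732 on the plus strand, the second chr3:36475838-36476137 on the minus strand, each written 5′ to 3′.
Anxa2: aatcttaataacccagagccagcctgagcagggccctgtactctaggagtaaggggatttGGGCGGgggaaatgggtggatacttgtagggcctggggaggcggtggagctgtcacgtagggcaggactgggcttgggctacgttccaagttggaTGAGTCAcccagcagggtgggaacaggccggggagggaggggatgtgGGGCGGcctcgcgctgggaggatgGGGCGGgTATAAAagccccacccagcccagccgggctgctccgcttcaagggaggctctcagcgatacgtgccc
Anxa5: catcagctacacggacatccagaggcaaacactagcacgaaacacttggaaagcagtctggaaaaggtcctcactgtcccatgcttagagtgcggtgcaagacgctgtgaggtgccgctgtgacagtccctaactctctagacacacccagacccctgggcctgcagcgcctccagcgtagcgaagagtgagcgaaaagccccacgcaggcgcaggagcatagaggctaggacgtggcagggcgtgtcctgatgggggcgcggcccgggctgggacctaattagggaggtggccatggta
The Anxa2 window held 1 AP-1 match beginning at position −95 from the start, 3 GC boxes beginning at −190, −48 and −24, and 1 TATA match beginning at −17. None of these matches overlap. The Anxa5 window held none of them and no CCAAT or CRE (TGACGTCA) match. Of 32851 RefSeq promoter windows of the same length, 7.81% held the AP-1 letters, 35.7% a GC box, 13.6% TATAAA, 37.4% CCAAT and 1.79% the CRE, and 72.3% an E-box (CANNTG), of which Anxa5 held 1 and Anxa2 none. Guanine and cytosine made up 63.7% of the Anxa2 window and 60.3% of the Anxa5 window, against a median of 52.7% over all windows. Windows were at hand for 6 of 9 members, and the AP-1 letters were in none but that of Anxa2. A match is a description of the letters and not of a bound factor.

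**Figure D2:**
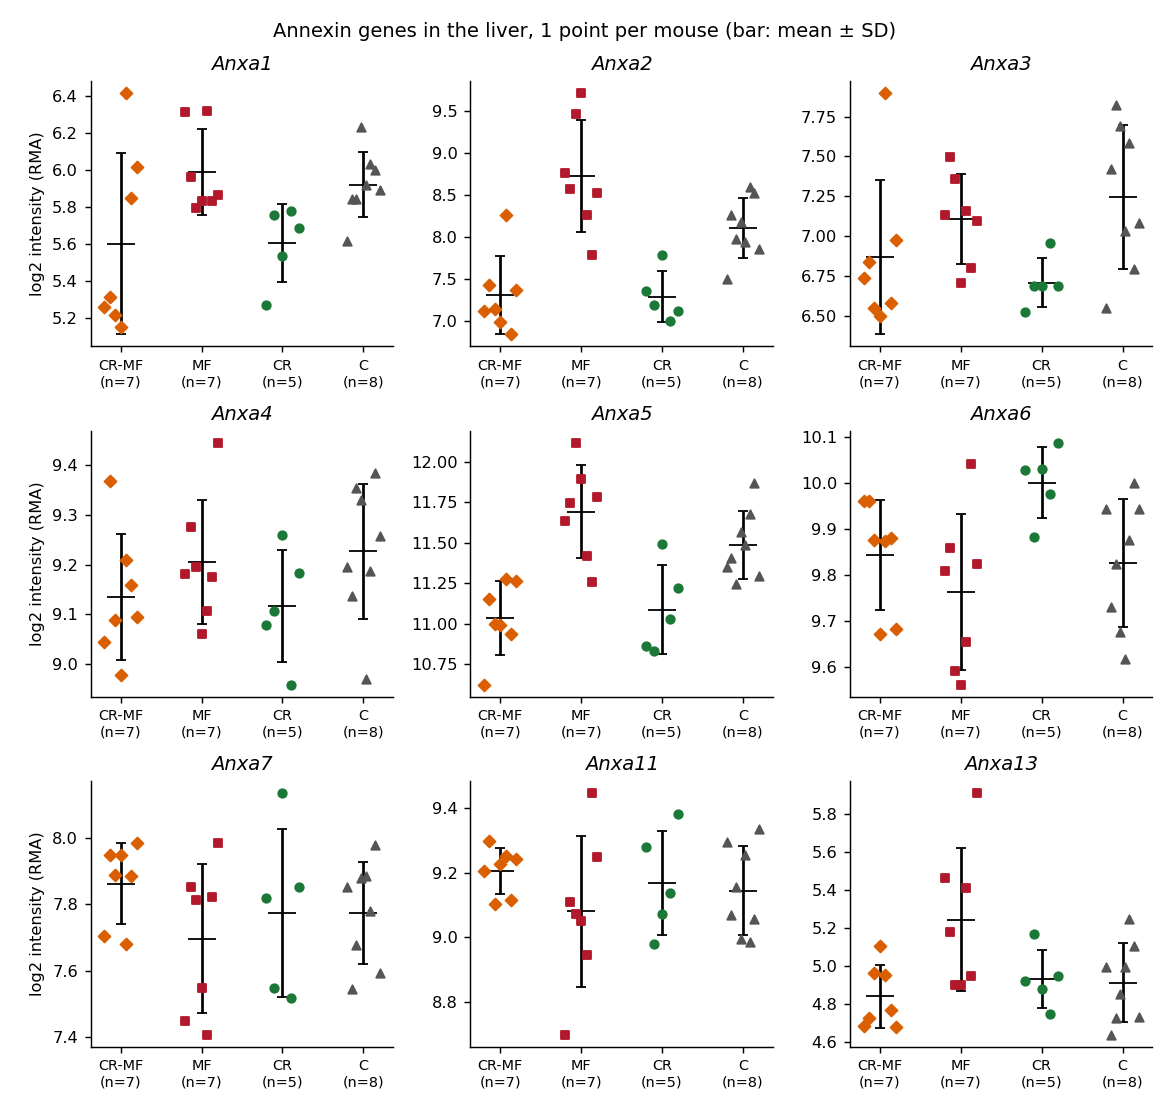
Log2 intensity of each annexin gene in every mouse, by diet group, with the mean and SD as a black bar and each panel on its own scale. For Anxa2 and Anxa5 the MF mean is highest and CR-MF mice overlap CR mice, while 1 CR-MF point (BC4_11) lies above the rest of its group for Anxa1, Anxa2 and Anxa3.

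Anxa1 and Anxa3 are the members best known from leukocytes. Anxa1 is induced by glucocorticoids and limits neutrophil recruitment through formyl peptide receptors, and Anxa3 is abundant in myeloid cells. Anxa1 levels were 5.26, 5.31, 5.21, 5.15, 6.42, 5.85 and 6.02 in CR-MF mice, and thus fell into 4 mice from 5.15 to 5.31 and 3 mice from 5.85 to 6.42. In MF mice the lowest was 5.79, the median 5.87 and the highest 6.32, in the 5 CR mice the levels were 5.27, 5.75, 5.53, 5.78 and 5.69, and in C mice the lowest was 5.62, the median 5.90 and the highest 6.23. All 7 MF mice lay above all 5 CR mice in Anxa1 (MF minus CR 0.39, SE 0.17). The share of all genes without overlap of these groups was not computed. By limma 2.8% of all tested genes were called higher, and Anxa1 was not past the threshold. In CR-MF minus MF the difference was −0.39 (SE 0.16), not past the threshold with all mice and past it without BC4_11 (−0.52).

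Against C, Anxa1 was −0.32 in both CR-MF (SE 0.15) and CR livers (SE 0.17), with limma's adjusted p at 0.427 and 0.299, and 0.07 in MF livers (adjusted p = 0.9997). Means were 5.60 ± 0.49 in CR-MF, 5.99 ± 0.23 in MF, 5.60 ± 0.21 in CR and 5.92 ± 0.18 in C livers. The SD in CR-MF livers was thus the largest of the 4 groups. The like means of CR-MF and CR rested on BC4_11, without which the CR-MF mean of Anxa1 was 5.47 (CR-MF minus CR −0.14), and CR-MF minus C was −0.46 (adjusted p = 0.0987).

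Anxa3 differed from Anxa2 in the order of its groups, the C mean being highest: 6.87 ± 0.48 in CR-MF, 7.11 ± 0.28 in MF, 6.71 ± 0.16 in CR and 7.25 ± 0.45 in C livers. In the CR-MF mice its levels were 6.74, 6.84, 6.55, 6.50, 7.90, 6.58 and 6.98, and in the CR mice 6.53, 6.69, 6.69, 6.96 and 6.69. In MF mice the lowest was 6.71, the median 7.14 and the highest 7.50, and in C mice 6.55, 7.25 and 7.82. The CR mice were the tightest group, and all 5 lay under the C mean (CR minus C −0.54, SE 0.21, limma's adjusted p = 0.149). The other differences were −0.38 in CR-MF minus C (adjusted p = 0.45), −0.14 in MF minus C (adjusted p = 0.9997), 0.16 in CR-MF minus CR, 0.40 in MF minus CR and −0.24 in CR-MF minus MF, each with an interval that includes 0. Without BC4_11 the CR-MF mean of Anxa3 was 6.70, its CR-MF minus CR difference turned to −0.012, CR-MF minus MF was −0.41 and CR-MF minus C was −0.55 (limma's adjusted p = 0.102).

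Anxa13, an annexin of polarised epithelia such as gut and kidney that carries a lipid anchor and acts in vesicle delivery, lay near the detection threshold of 4.32. Its levels in MF mice were 5.47, 5.18, 4.90, 4.90, 5.41, 4.95 and 5.91, against 4.92, 5.17, 4.88, 4.75 and 4.95 in CR mice, and the range was 4.68 to 5.11 in CR-MF and 4.64 to 5.25 in C mice. The MF mice thus spread more widely than the others, with 4 of 7 above every CR-MF and, in the same number, above every CR mouse. All 7 CR-MF mice lay below the MF mean (−0.40, SE 0.13), MF minus CR was 0.31 (SE 0.14) and neither was past the threshold. Against C the MF difference was 0.33 (SE 0.13, limma's adjusted p = 0.9997).

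Anxa4, Anxa6, Anxa7 and Anxa11 varied little between groups. Anxa6, an annexin with a doubled core that binds late endosomes rich in cholesterol, was the one of them with an unadjusted p under 0.05 in any comparison and ran against Anxa2, being highest in CR livers. Its levels were 10.03, 9.88, 10.03, 9.98 and 10.09 in CR mice, and the lowest, median and highest were 9.67, 9.88 and 9.96 in CR-MF, 9.56, 9.81 and 10.04 in MF and 9.62, 9.85 and 10.001 in C mice. Of the 7 MF mice, 6 lay below every CR mouse (MF minus CR −0.24, SE 0.08), and all 7 CR-MF mice lay below the CR mean (−0.16, SE 0.08). The MF minus CR difference of Anxa6 was not past the threshold, but was without the MF mouse C4_13 (−0.28). It was also past the threshold with arrays centred on their medians (−0.36), a scaling that shifted the median of all genes to −0.13 and called 1880 genes in MF minus CR, against 758 without it. Averaged over both of its clusters, Anxa6 differed by −0.13, which was not past the threshold. In CR livers Anxa6 was above C by 0.17 (SE 0.08, limma's adjusted p = 0.209).

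Anxa4, which binds membranes of secretory epithelia, had means of 9.13 ± 0.13 in CR-MF, 9.21 ± 0.13 in MF, 9.12 ± 0.11 in CR and 9.23 ± 0.14 in C livers, and its 6 differences ran from −0.11 to 0.09. Anxa7, or synexin, which fuses secretory vesicles and binds the calcium sensor sorcin, had means of 7.86 ± 0.12, 7.70 ± 0.23, 7.77 ± 0.25 and 7.77 ± 0.15 in CR-MF, MF, CR and C livers. Anxa11, which ties RNA granules to lysosomes in neurons and binds the calcium sensor Pdcd6, had means of 9.21 ± 0.07, 9.08 ± 0.23, 9.17 ± 0.16 and 9.14 ± 0.14 in the same groups. For Anxa7 and Anxa11 the 95% intervals of all 6 differences included 0 and reached at most 0.37 and 0.30 above it, both in CR-MF minus MF. Although small, these differences took the sign opposite to that of Anxa2 in CR-MF minus MF, with all 7 CR-MF mice above the MF mean in Anxa11 and 6 of 7 in Anxa7.

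The second clusters of Anxa6 and Anxa11, not used above, had group means between 4.46 and 4.57 for Anxa6 and between 4.77 and 4.87 for Anxa11, close to the detection threshold. Of the 3 annexin genes outside the chosen set, Anxa10 was under the threshold on every array, with group means of 3.06 to 3.28, and failed the filter. Anxa9 had means of 5.74 in CR-MF, 5.78 in MF, 5.59 in CR and 5.75 in C livers. Anxa8 lay close to the detection threshold, with 24 of 27 arrays above it, so that its differences are those of dim signals. It had levels of 4.32 to 4.58 in CR-MF mice and 4.60 to 5.52 in MF mice, so that these groups did not overlap (CR-MF minus MF −0.46, SE 0.16, not past the threshold, where 0.893% of genes were called lower). How often all genes lacked overlap of these groups was not computed. In CR and C mice Anxa8 ran from 4.25 to 4.79 and from 4.34 to 5.60.

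How members vary among mice of the same diet was measured after subtracting each group's mean, over 36 pairs of members and 27 mice, with 100000 permutations within groups and Benjamini-Hochberg adjustment over the 36 pairs. Of the 36 pairs, 2 passed with Pearson's r and 1 with Spearman's rho, and leaving out 1 mouse gave 1 to 4 by Pearson's r. Anxa2 and Anxa5 varied together (r = 0.74, two-sided permutation p = 7e-05, adjusted p = 0.00252, and rho = 0.70, permutation p = 0.00028, adjusted p = 0.0101). The relation held without the 2 mice farthest from the median in Anxa2, BC4_11 and C4_9 (r = 0.76), and within plate code G150 (r = 0.80 over 19 mice). This variation among mice of 1 diet was not used in choosing the family.

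Anxa1 and Anxa3 also varied together by Pearson's r (r = 0.60, two-sided permutation p = 0.00259, adjusted p = 0.0466) but not by rank after adjustment (rho = 0.52, permutation p = 0.0058, adjusted p = 0.104). Without BC4_11 and BC4_15, the mice farthest from the median in Anxa1, r was 0.41, and within G150 it was 0.30, so this relation rests in part on those mice. Anxa2 with Anxa1 gave r = 0.24 (permutation p = 0.263, adjusted p = 0.532) and Anxa2 with Anxa3 gave r = 0.40 (permutation p = 0.0466, adjusted p = 0.24). The median r of the 36 pairs was 0.11, and 23 of them were positive.

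**Figure D3:**
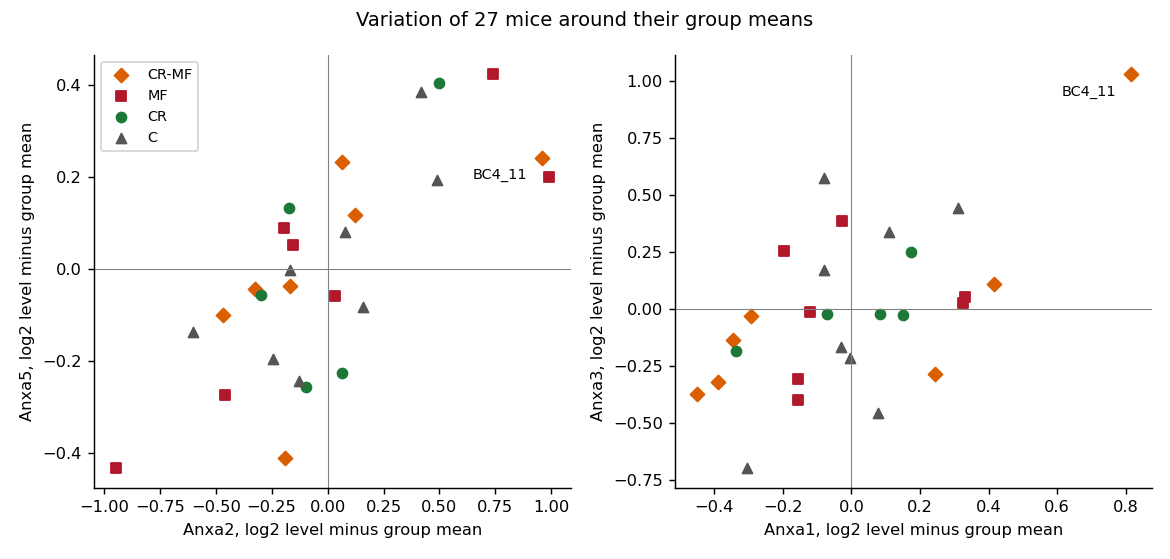
Levels of 27 mice with their group means subtracted, in log2 units, for Anxa5 against Anxa2 (left) and Anxa3 against Anxa1 (right), coloured by diet. The left points follow a diagonal in all 4 groups (r = 0.74), while the right cloud is looser and has BC4_11 at its corner (r = 0.60, or 0.41 without BC4_11 and BC4_15).

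Anxa2 and Anxa3 had the largest SD of the members over the 27 arrays (0.75 and 0.42), and the genes most like each of them were sought among all tested genes by Pearson's r over 27 arrays, given as a description, since the arrays share their diets and tissue makeup. For Anxa2 these were Anxa5 (r = 0.89), S100a11 (0.89), Tceal9 (0.88), Tmem43 (0.87) and Gpx3 (0.87). After subtracting group means they were Tgm2, a transglutaminase (r = 0.82), S100a11, a calcium-binding annexin partner (0.81), Tpm1, an actin-binding tropomyosin (0.80), Tceal9 (0.80) and Cd93, a receptor of endothelial cells (0.80), with Anxa5 at rank 17.

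For Anxa3 the closest were Cd84, a receptor of leukocytes (r = 0.95), P2ry6, a nucleotide receptor (0.93), Pla2g4a, the cytosolic phospholipase A2 (0.92), Ap1s2 (0.92) and Myof, a membrane repair protein (0.92). With group means subtracted they were Cd84 (0.93), Nlrp3, the inflammasome sensor (0.92), P2ry6 (0.92), Lilrb4a, an inhibitory receptor of myeloid cells (0.91), and Myof (0.91). The 2 members had no gene in common among these nearest neighbours, and Anxa2 stood at rank 1502 in the list of Anxa3.

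Genes that work with annexins were taken from lists by function, and the counts that follow are of genes passing limma's test in all genes. Among S100 proteins, with the scaffold Ahnak, that bind annexins, 2 of 5 rose in MF over CR livers and none passed in CR-MF minus MF. Beside this, limma called 2.8% of all genes higher in the first comparison and 0.893% lower in the second. S100a11 had levels of 8.47, 8.40, 9.19, 8.83 and 8.67 in CR mice, and the lowest, median and highest were 8.35, 8.85 and 9.54 in CR-MF, 8.71, 9.68 and 10.11 in MF and 8.79, 9.16 and 9.75 in C mice. It was higher by 0.85 in MF minus CR (SE 0.21, limma's adjusted p = 0.0198), with overlap between the groups, and was −0.70 in CR-MF minus MF (adjusted p = 0.0593). S100a10, the partner of Anxa2 in its complex, was higher by 0.70 in MF minus CR (SE 0.18, adjusted p = 0.0209 from limma) and was −0.43 in CR-MF minus MF (adjusted p = 0.19). Both calls were lost (0 of 5) without CR mouse B4_1 or B4_3 and within G150. The other 3, S100a4, S100a6 and the scaffold Ahnak, lay at 0.39, 0.36 and 0.23 in MF minus CR and did not pass.

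Gas6, the protein that bridges exposed phosphatidylserine to the phagocytic receptors Axl, Mertk and Tyro3, had, like Anxa2 and Anxa5, its highest mean in MF livers, the next in C livers and lower ones in CR-MF and CR livers. Its levels in CR mice were 9.19, 8.62, 9.30, 9.15 and 8.62, with a lowest, median and highest of 8.66, 9.21 and 9.62 in CR-MF, 9.56, 10.08 and 10.85 in MF and 8.99, 9.55 and 10.34 in C mice. All 7 MF mice lay above all CR mice, a separation whose share over all genes was not computed. Gas6 rose by 1.14 in MF over CR livers (SE 0.24, limma's adjusted p = 0.00848) and fell by 0.95 in CR-MF relative to MF livers (SE 0.22, adjusted p = 0.0216). It was the 1 of 10 phosphatidylserine receptors and bridges to pass in each comparison. Of all genes, 2.8% were called higher in MF minus CR and 0.893% lower in CR-MF minus MF. The fall was lost when any 1 of 5 mice (MF mice C4_7 and C4_9, CR-MF mice BC4_5, BC4_9 and BC4_13) was left out. Within G150 the count of this list was 0 for the rise and 1 for the fall.

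In 4 other lists 1 gene each rose in MF over CR livers. These were Actg1, cytoplasmic gamma actin (0.92, 1 of 8 actin cytoskeleton genes), Plscr1, a phospholipid scramblase (0.66, 1 of 6 scramblases and flippases), Plaur, the urokinase receptor (0.64, 1 of 5 tested genes of the plasminogen system), and Capn1, a calcium-activated protease (0.37, 1 of 11 tested membrane repair genes). Limma's adjusted p was 0.00999 for Actg1, 0.0137 for Plscr1, 0.0373 for Plaur and 0.0156 for Capn1, beside 2.8% of all genes called higher. The median difference was 0.59 over the actin list, 0.39 over the S100 list, 0.34 over the plasminogen list, 0.32 over the scramblases and flippases, 0.16 over the phosphatidylserine receptors and bridges and 0.12 over the membrane repair list, with −0.01 over all genes. Without CR mouse B4_3, Plscr1 and Capn1 did not pass, and Plaur was lost when any 1 of 10 mice was left out. Within G150 each of these 4 lists, that of Actg1 included, had 0 genes called in MF minus CR.

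Of 11 membrane repair genes, 2 fell in CR below C livers. They were Myof (−1.14, SE 0.29, limma's adjusted p = 0.04) and Capn1 (−0.37, SE 0.08, adjusted p = 0.0275), beside 0.808% of all genes called lower, and leaving out 1 mouse gave counts of 0 to 2, with 10 of the 27 mice lowering it. Myof was tight in CR mice, at 6.34, 6.30, 6.23, 6.22 and 6.36, with a lowest, median and highest of 6.44, 7.61 and 8.16 in C mice. Sri, which encodes the calcium sensor sorcin that binds Anxa7, rose in CR-MF over CR livers (0.40, SE 0.08, limma's adjusted p = 0.0163), the 1 of 4 EF-hand partners of Anxa7 and Anxa11 to pass any comparison. In CR-MF minus CR, 0.236% of all genes were called higher. Sorcin ran from 9.75 to 10.26 in CR-MF mice against 9.48, 9.55, 9.66, 9.46 and 9.78 in CR mice, while Anxa7 itself differed by 0.09 (SE 0.11). The Sri call was lost without CR mouse B4_1, B4_3 or B4_7 and within G150.

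**Figure D4:**
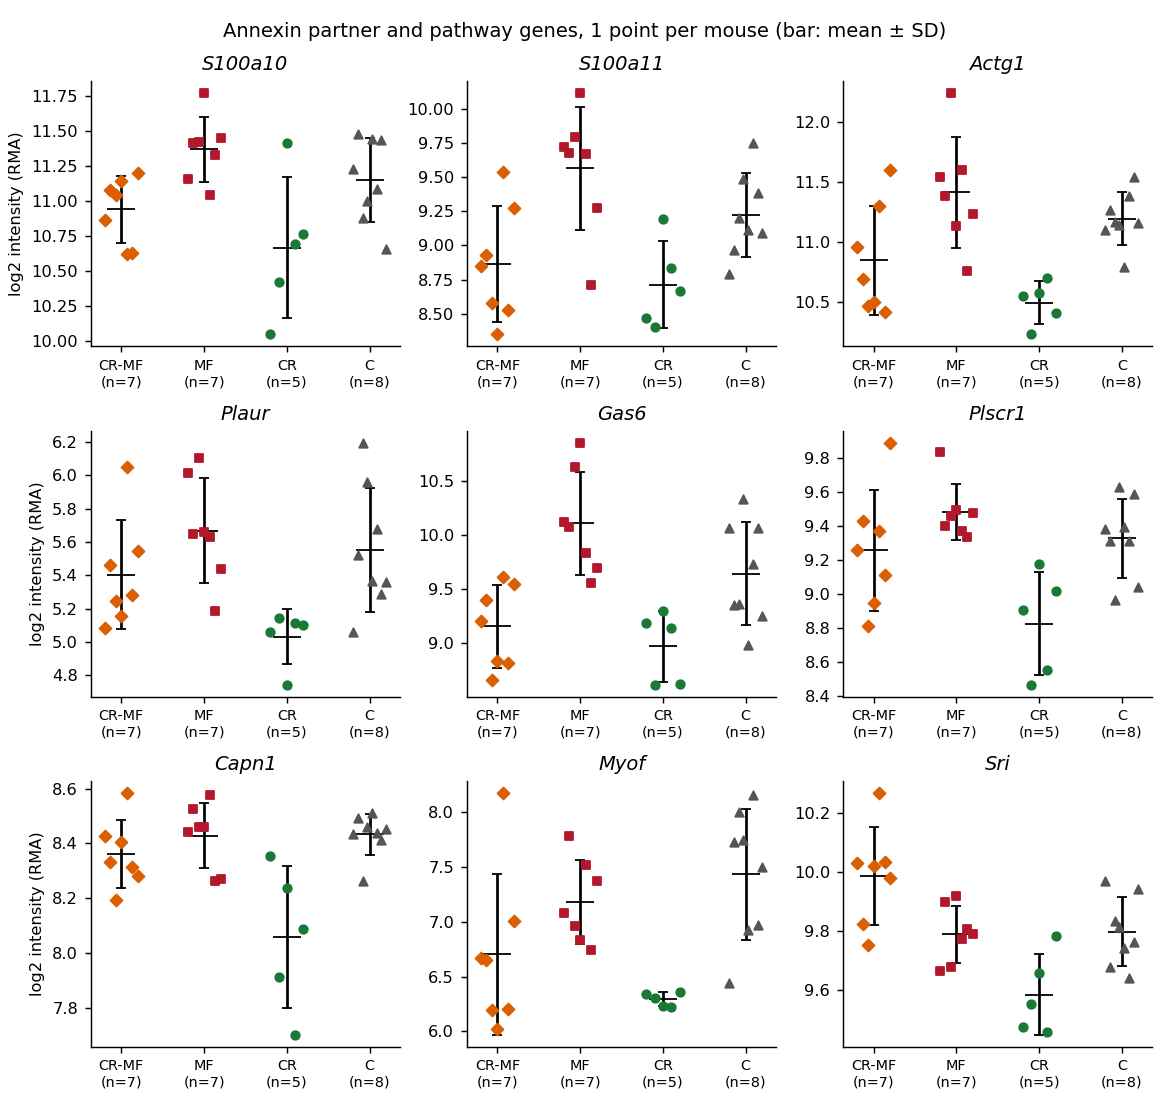
Log2 intensity of 9 annexin partner and pathway genes in every mouse, by diet group, with the mean and SD as a black bar and each panel on its own scale. For Gas6 all MF mice lie above all CR mice, Myof is tight in CR mice (6.22 to 6.36), and the Sri mean is highest in CR-MF mice.

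Some markers of other cell types also differed between diet groups. The mean level of 10 markers of recruited and lipid-associated macrophages was 7.06 in CR-MF (range 6.52 to 8.22), 7.69 in MF (7.15 to 7.88), 6.74 in CR (6.65 to 6.79) and 7.76 in C livers (7.10 to 8.57), with no marker under the detection threshold in any group mean. Of the 10, Trem2, Gpnmb and Ccr2 rose in MF over CR livers (1.41, 1.57 and 0.98 on the log2 scale) and Cd9 fell in CR-MF relative to MF livers (−0.76), all by limma. Trem2, Ccr2 and Lgals3 fell in CR relative to C livers (−1.63, −1.10 and −1.13). Over all genes, 2.8% were called higher in MF minus CR, 0.893% lower in CR-MF minus MF and 0.808% lower in CR minus C. Leaving out 1 mouse gave counts of 0 to 6 in MF minus CR, 0 to 2 in CR-MF minus MF and 0 to 6 in CR minus C. BC4_11 was the CR-MF mouse highest in these markers, as in Anxa1, Anxa2, Anxa3 and Anxa5. It was also the highest CR-MF mouse in the Kupffer (9.96), stellate and fibroblast (8.28), endothelial (8.90), T and NK cell (6.57) and red cell lists (6.18). It was not so in the neutrophil, B and plasma cell, bile duct, adipocyte, mesothelial and hepatocyte lists. MF livers, at a macrophage marker mean of 7.69, had an Anxa2 mean of 8.73, against 7.76 and 8.10 in C livers. The part of macrophages in the annexin differences was not tested.

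Among the other lists, Kupffer cell markers averaged 9.34 in CR-MF, 9.35 in MF, 9.11 in CR and 9.69 in C livers (9 genes, 1 higher in MF minus CR), stellate cell and fibroblast markers 7.69, 7.94, 7.59 and 7.85 (11 genes, 2 higher in MF minus CR), and endothelial markers 8.41, 8.64, 8.47 and 8.57 (10 genes, 1 higher in MF minus CR). Neutrophil markers averaged 4.94, 5.17, 4.48 and 4.84 in the same order of groups, with Mmp8 and Cxcr2 of 7 under the detection threshold and none called. T and NK cell markers averaged 5.40, 5.41, 4.99 and 5.58, with Klrb1c and Ncr1 of 8 under the threshold. B and plasma cell markers averaged 5.58, 5.85, 5.32 and 5.86 (Tnfrsf17 of 7 under it), and red cell markers 5.96, 6.37, 5.85 and 5.77 (Epb42 of 3 under it). None was called in these lists either. Bile duct markers averaged 5.22, 5.38, 5.37 and 5.20, with Cftr of 7 under the threshold and Epcam lower in CR-MF minus MF (−0.78). In the mesothelial list Wt1 was higher in MF minus CR (0.43) and lower in CR-MF minus MF (−0.63), and in the adipocyte list Cidea was higher in MF minus CR (2.94) while Adipoq and Lep were under the threshold. Beside the counts of these lists, 2.8% of all genes were called higher in MF minus CR and 0.893% lower in CR-MF minus MF. The adipocyte list moved more than the macrophage list: the median difference of its 4 tested genes was 1.48 in MF minus CR, −1.04 in CR-MF minus MF and −1.30 in CR minus C, against 0.91, −0.58 and −1.12 over the 10 macrophage markers. With Adipoq and Lep under the threshold, this list is not read as a level of adipocytes. With 1 of the 27 mice left out, the MF minus CR count fell for any of 12 mice in the Kupffer list, 7 in the endothelial, 6 in the mesothelial, 5 in the adipocyte and 3 in the stellate list, and the bile duct count in CR-MF minus MF for any of 3, whereas the mesothelial count in CR-MF minus MF stayed at 1 throughout. Within G150 that count was also 1, and the other counts just given were 0. The part of these cell types in the annexin differences was not tested.

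**Figure D5:**
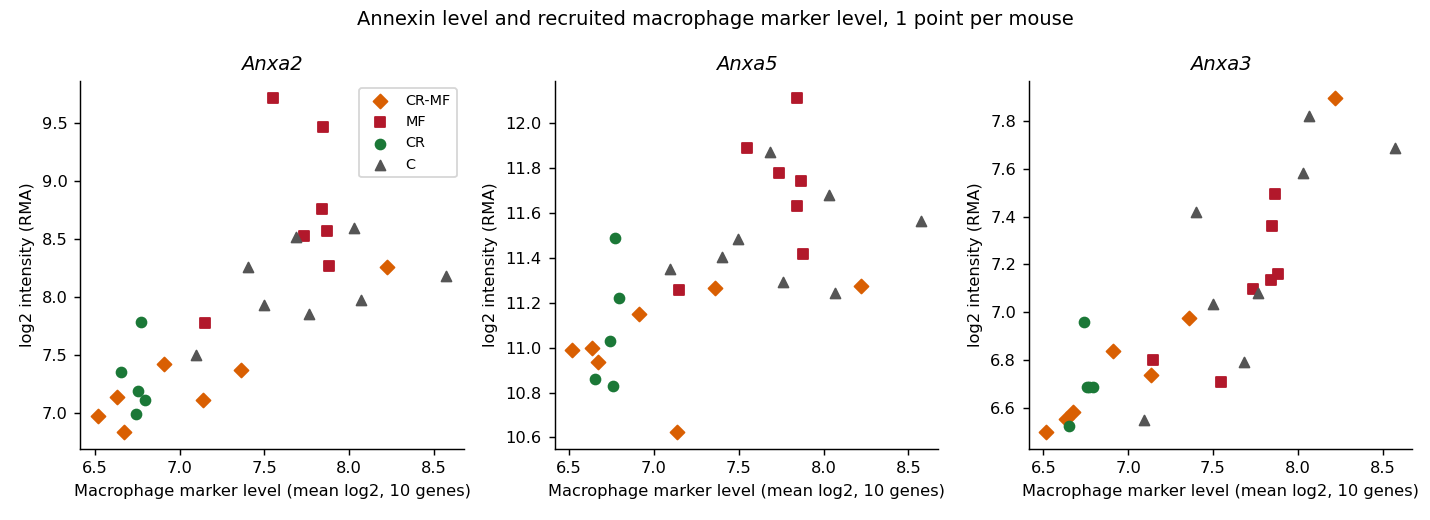
Log2 intensity of Anxa2, Anxa5 and Anxa3 (vertical) against the mean log2 level of 10 recruited macrophage markers (horizontal), 1 point per mouse, coloured by diet. The highest Anxa2 level is of an MF mouse and the highest marker level of a C mouse. The CR-MF point farthest to the right, at 8.22, is BC4_11.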

How the data were processed

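RNA of 27 livers was hybridised to Affymetrix Mouse Gene 1.1 ST arrays. The authors deposited 1 table of log2 intensities normalized by RMA in their MADMAX pipeline. Their methods describe probe sets by Entrez gene, whereas the deposited rows are 35556 transcript clusters of the manufacturer. Of these, 21218 had 1 gene symbol, 1881 several and 12457 none, and those of 1 symbol gave 18820 genes, each by its cluster of highest mean. Of the genes, 18790 matched the RefSeq table by gene ID.

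The 13993 genes with 5 or more arrays over intensity 20 and an interquartile range over 0.1 entered limma 3.58.1 (R 4.3.3), with 4 group means, an intensity trend and all 27 arrays. The residual degrees of freedom were 23. Each mouse is a biological replicate, and the number of arrays limits the precision. P-values were adjusted over all genes kept. Correlations between members used scipy 1.17.1 and numpy 2.4.6. The fits were tested on simulated data.

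The members, gene lists and tests were chosen with earlier results of these data known. The text names all annexins, pathway-list genes that passed (at most 4 per list and comparison) and, for the 2 members of largest SD, the 5 most correlated genes in each of 2 ways. Marker genes and the nearest-neighbour ranks were added for reading beside them. A list of Anxa1 receptors and Anxa2 lipoprotein partners had 0 genes with a cluster of 1 symbol and was not analysed here. Alternatives were other normalizations, filters, variance models (including IBMT, the methods' choice), array weights, blocks of plate code or of animal number, the arrays of G150 only, mean of all clusters, each mouse left out, and, chosen after seeing the data, both BC4_11 and BC4_15 left out. The week of sacrifice of each mouse was not used here.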

Additional observations from a re-analysis of the deposited data

Results flagged for a closer look

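Among 24 annexin and partner genes in 4 groups each (96 groups), 9 groups had an extreme mouse whose distance from its neighbour was large against the group's range, where chance gives about 1 in 20. Of these, 3 were the same CR-MF mouse, BC4_11, which was the highest of its group in Anxa2 (8.26, the next mouse at 7.43), Anxa3 (7.90, next 6.98) and the annexin-binding S100a4 (5.77, next 4.70). In MF livers, mouse C4_15 was highest in Anxa8 (5.52, next 4.99), C4_11 in S100a4 (5.73, next 4.94) and C4_1 in the scramblase gene Plscr1 (9.83, next 9.49). The other 3 were lowest mice: the CR mouse B4_5 in Plaur (4.74, next 5.06), the C mouse A4_5 in Capn1 (8.26, next 8.41) and the C mouse A4_3 in Anxa10 (2.70, next 3.04), a gene under the detection threshold on all arrays.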

How the results depend on the processing

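The count of annexins past the threshold in CR-MF minus MF was 1 within plate code G150, and in MF minus CR it was 0 there and 1 with the animal number as a replicate block (Anxa5 lost). The screen for genes keeping the CR level held 1 member within G150. In CR-MF minus C the count was 2 with array weights and 3 without mice BC4_11 and BC4_15, and in CR minus C it was 2 with array weights, 1 with only the groups compared in the fit and 1 without those mice, against 0 in each case. Pairs varying together numbered 1 with quantile normalization and 1 by Spearman. With 1 mouse left out, the counts ran from 2 to 3 (CR-MF minus MF), 1 to 3 (MF minus CR), 0 to 1 (CR-MF minus C and CR minus C), 0 to 0 (CR-MF minus CR and MF minus C), 2 to 2 (screen) and 1 to 4 (pairs). The single changes came without CR mouse B4_3 (MF minus CR, 1), CR-MF mouse BC4_11 (CR-MF minus MF, 3, and CR-MF minus C, 1), CR mouse B4_5 or C mouse A4_1 (CR minus C, 1) and MF mouse C4_13 (MF minus CR, 3, and pairs, 4), and the count of pairs was 1 without any 1 of C mice A4_1, A4_9, A4_13, A4_17 and A4_21, CR mice B4_1 and B4_7, MF mouse C4_9 or CR-MF mice BC4_1, BC4_5, BC4_9, BC4_11 and BC4_15. Of these mice, B4_3, BC4_11 and A4_1 are each the only one of their group with code G152.

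The Anxa2 difference in CR-MF minus CR changed sign: −0.026 with median centring, −0.081 with array weights, −0.29 within G150, −0.039 with the replicate block, −0.19 without BC4_11 and BC4_15, and −0.14 to 0.14 with 1 mouse left out. That of Anxa5 ran from −0.116 to 0.049 with 1 mouse left out. Of 34 other member differences, 15 changed sign under an alternative, the largest being 0.16 in size, and 0 were called. Median centring moved the median of all genes to −0.13 in MF minus CR (1880 genes called, against 758) and to 0.11 in CR minus C (650, against 220). Anxa1 and Anxa13 gave no value under the stricter intensity filter. Of 27 pairs of mice that share an animal number across groups, 13 correlated over 0.1, a count not made for other numbers. Their median was 0.09, against −0.02 for other numbers. The main fit did not take the number as pairing mice. With the number as a block, 294 genes were called in MF minus CR, against 758. Where calls changed, the cause was not tested. The part of the fewer mice in G150 and of the replicate block's fewer degrees of freedom was not tested either. Array number and, for Anxa13, signal near the detection threshold limit the precision.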
